A study of Mus musculus with 3 samples.

Results

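Expression of 8 genes that mark Schwann cells and their neural crest ancestors was read in 3 cell fractions of mouse fat: Sox10, Foxd3, Ngfr, Erbb3, Gfra3, Mbp, Pmp22 and S100b. The members were the probes that the array annotation assigns to these gene names, 13 of 56602 probes and 8 of 37073 genes. The rule uses gene names and no measured value, but the members were chosen with earlier results of these data known. Epididymal fat of male C57/BL mice, given as 20 weeks old in the records, was digested with collagenase and separated by density. After a very short slow spin, the lower phase gave stromal vascular cells (SVC). The floating cells were spun again at 226 g for 3 min, which left mature adipocytes on top (MA, called MWA in the study's own text) and small proliferative adipocytes as sediment (SPA). SVC and SPA were grown to 90% confluence before RNA was taken, while no culture is described for MA, and wherever MA is compared, culture and cell type cannot be told apart. Each fraction has 1 Agilent 1-colour array with 60-base probes, labelled from 50 ng of RNA, and the number of mice behind an array is not given in the sources used here. With 1 array per fraction there is no replicate check, no test and no p-value for any difference below.

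Schwann cells are the glia of peripheral nerves. They arise from the neural crest under the transcription factors SOX10 and FOXD3, survive on neuregulin signals received through the receptor ERBB3, and wrap axons in myelin that contains the proteins MBP and PMP22. Fat tissue is innervated, so nerve fibres with their Schwann cells are present in the intact organ. Several of these genes are also used outside the lineage: NGFR marks mesenchymal stromal cells and pericytes, S100B is found in adipocytes as well as in glia, and PMP22 is made by fibroblasts.

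Expression level here is the log2 of a spot's processed signal minus the log2 of the 75th percentile of all spots on that array that are not controls. A probe has a level where the scanner software marked it well above background, and only an upper bound otherwise. The error given with a ratio is the within-array SD, taken from the 20 probes nearest in level among 300 probes that were spotted 10 times on each array. It leaves out the variation between mice, preparations and cultures. The dimmest probes of an array all received the same SD, 0.17 in SVC at levels from -3.80 to -7.18. It may therefore understate the error of dim members such as Sox10. The software's own error of a signal is a separate measure and is not included. In SVC it was 3.92 on a signal of 20.3 for Sox10, and 2438 on 24378 for Pmp22. In bulk RNA, fewer cells of a type and less RNA per cell cannot be told apart. Between 58.6% and 61.4% of the spots on an array were marked well above background, and 0 were saturated.

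Every fraction had 7 of the 8 genes well above background and lacked Foxd3, whereas 53.6% of all genes were above background on all 3 arrays and 34.8% on none. S100b and Ngfr rose from SVC to SPA and again to MA. They were the 2 members at least 5-fold higher in MA than in SVC, as were 5.74% of all genes measured. With normexp background correction the log2 ratio of Ngfr for MA over SVC was 1.77, under 5-fold. The myelin genes Mbp and Pmp22 stayed within 1.21-fold between any pair of fractions at the probe read, though quantile normalization gave Pmp22 a log2 ratio of 0.76 for MA over SVC. Erbb3 was lower in MA than in both cultured fractions at the probe that could be read, and its other probe had no signal above background anywhere. Levels of different probes are not compared with each other, because probes differ in their response.

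**Figure D1:**
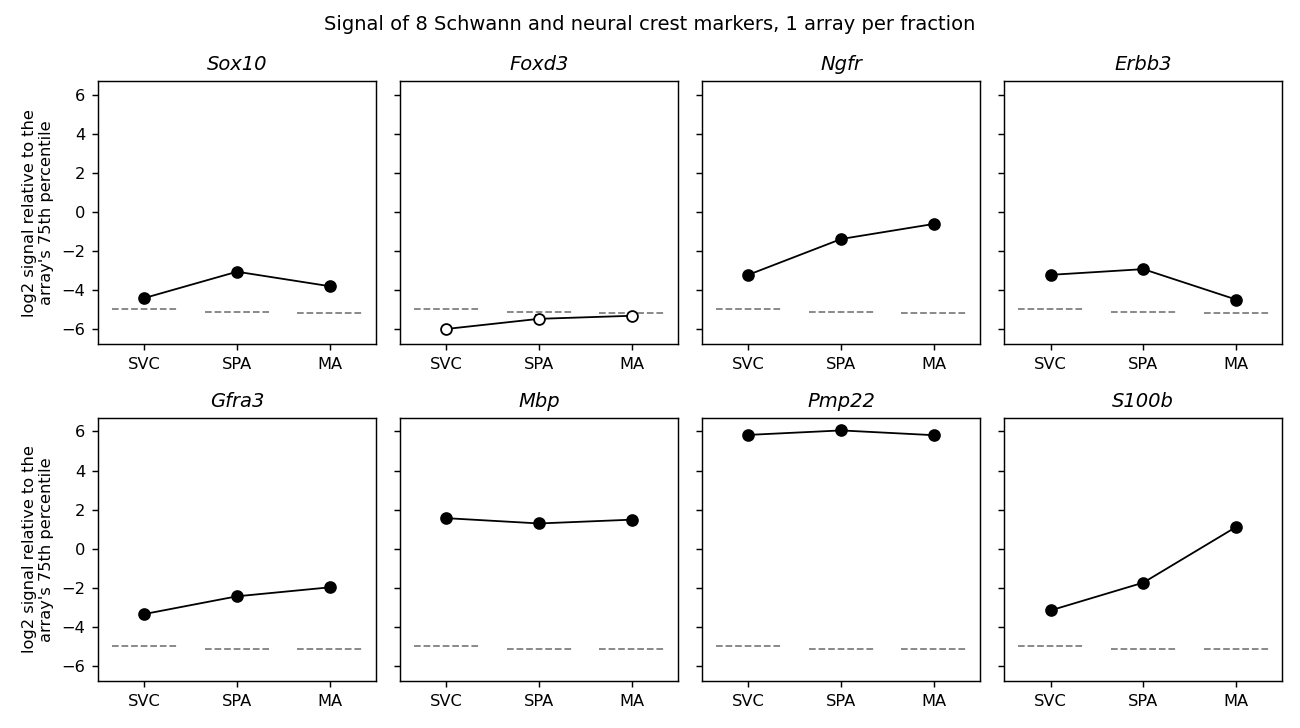
Log2 signal relative to the array's 75th percentile (y axis) of the 8 markers in SVC, SPA and MA (x axis), 1 array each. Filled points are well above background, open points are not, error bars are the within-array SD (mostly hidden by the points), and dashed lines mark the detection floor, the dimmest probe of that array still marked well above background. Foxd3 lies under that line in all 3 fractions, and S100b climbs from -3.16 to 1.11.

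Sox10 encodes the factor that defines the glial branch of the neural crest. Its single probe lies at chr15:78985343-78985402 on the minus strand of mm9, in the transcript NM_011437, and the first 30 of its 60 bases identify the stretch that was read:
Sox10 probe: ttgcattaagcactccaagtaatataatca
Sox10 had a processed signal of 20.3 in SVC, 52.8 in SPA and 26.3 in MA, which are levels of -4.40, -3.05 and -3.80. It was therefore highest in SPA and lowest in SVC. The SPA to SVC ratio was 2.55-fold (log2 1.35 ± 0.23, within-array SD), and MA was 1.67-fold lower than SPA (log2 -0.74 ± 0.21). MA over SVC was 1.52-fold (log2 0.61 ± 0.22). The spot was dim throughout, at 1.90, 2.95 and 1.93 times its local background, and normexp background correction lowered the SPA to SVC log2 ratio to 0.46, under 2-fold. Among spots not well above background in SVC, 9.77% were above it in SPA over the whole array. In the neighbourhood of the Sox10 spot the share was 9.09%. These are other spots, since Sox10 was above background in SVC, so the share cannot speak for the Sox10 spot itself.

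Foxd3 encodes a factor of early neural crest that keeps precursors uncommitted. Its single probe, at chr4:99325027-99325086 on the plus strand, gave signals of 6.80 in SVC, 9.94 in SPA and 9.22 in MA. All 3 values lie under the detection floor, the signal of the dimmest probe marked well above background, at 13.9, 12.5 and 10.3 on the respective arrays. No fold is given for Foxd3.

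Ngfr encodes the low-affinity neurotrophin receptor p75, a surface marker of migrating neural crest and of immature or denervated Schwann cells. Its probe lies at chr11:95430211-95430270 on the minus strand, in the last part of transcript NM_033217:
Ngfr probe: tccagctggcgactatgagatccagacctc
Ngfr signals were 46.5 in SVC, 168.6 in SPA and 239.7 in MA, or levels of -3.21, -1.38 and -0.61. SVC was the low fraction, and the step from SVC to SPA was larger than the step from SPA to MA. The first step was 3.55-fold (log2 1.83 ± 0.18) and the second 1.71-fold (log2 0.77 ± 0.14). Both exceed the within-array SD several times over, and together they made MA 6.07-fold higher than SVC (log2 2.60 ± 0.19). With the normexp correction this last value was 1.77, or under 5-fold, and the SPA to SVC log2 ratio was 1.12.

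Erbb3 encodes the neuregulin receptor on which Schwann cell precursors depend. The array holds 2 Erbb3 probes, both on the minus strand of chromosome 10 in mm9, and their opening bases show that they read separate stretches:
Erbb3 probe of transcript ENSMUST00000082059, chr10:128004749-128004808: gttgcagatacacactcattacaagccaat
Erbb3 probe of transcript NM_010153, chr10:128006424-128006483: gacaaccccgattactggcatagcaggctt
The first probe gave signals of 46.3 in SVC, 57.9 in SPA and 16.4 in MA, so MA was the low fraction while SVC and SPA differed by 1.22-fold (log2 0.29 ± 0.20). MA was 2.94-fold lower than SPA (log2 -1.56 ± 0.19) and 2.40-fold lower than SVC (log2 -1.26 ± 0.21). The second probe, which is the one annotated to the RefSeq transcript, was at 2.97, 2.61 and 2.21. These are substitute values that the software writes where nothing is left after background subtraction, and the raw spots were at 1.04, 1.11 and 1.00 times their local background. The 2 probes thus disagree on whether Erbb3 RNA was above background at all, and the accessions of the first probe matched no entry of the RefSeq gene table. With the normexp correction the log2 ratios of the first probe were -0.49 for MA over SPA and -0.33 for MA over SVC, both under 2-fold.

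Gfra3 encodes the co-receptor that binds artemin, a ligand of the GDNF family that guides sympathetic nerves. Its single probe, in transcript NM_010280 on the minus strand, gave signals of 42.4 in SVC, 81.2 in SPA and 93.0 in MA. The levels were -3.34, -2.44 and -1.98 and kept the order of Ngfr, with smaller steps. SPA was 1.88-fold higher than SVC (log2 0.91 ± 0.20), MA was 1.37-fold higher than SPA (log2 0.46 ± 0.18), and MA was 2.58-fold higher than SVC (log2 1.37 ± 0.20). With the normexp correction the last log2 ratio was 0.75, under 2-fold.

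Mbp encodes the myelin basic proteins that compact the myelin sheath, and from a distant upstream start the same locus also makes the golli transcripts, which are used outside myelin. Mbp and Gfra3 are both on chromosome 18, and Mbp has 3 probes there. The probe read is annotated to transcript NM_001025245 (variant 8) and gave signals of 1271 in SVC, 1075 in SPA and 1024 in MA. Its levels of 1.56, 1.29 and 1.49 differed little. The log2 ratios were -0.27 ± 0.11 for SPA over SVC, 0.19 ± 0.10 for MA over SPA and -0.08 ± 0.09 for MA over SVC. The other 2 probes are annotated first to NM_010777 (variant 7) and were dim. The probe whose 60 bases are spread over 2305 bases of genome, and so cross a splice junction, gave 31.0, 24.5 and 27.2, and the last probe gave 13.5, 8.21 and 8.69, not well above background in any fraction. The Mbp signal was thus far above background at the variant 8 probe only, at 48.7, 40.5 and 36.6 times the local background, against at most 2.11 times at the other probes.

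Pmp22 encodes a membrane protein of compact myelin that is also made in many non-neural cells. It has 3 probes on chromosome 11. The probe read, at chr11:62972929-62972988 on the plus strand, gave signals of 24378 in SVC, 29135 in SPA and 20497 in MA. A second plus-strand probe, at chr11:62971862-62971921, gave 3220, 3777 and 2565. Both placed SPA highest and both had small ratios: SPA over SVC was 0.23 ± 0.05 and 0.20 ± 0.08 on the log2 scale, and MA over SPA was -0.24 ± 0.05 and -0.29 ± 0.08. MA over SVC was -0.02 ± 0.05 and -0.09 ± 0.08. At the probe read, quantile normalization turned the log2 ratio of MA over SPA to 0.48 and moved that of MA over SVC to 0.76, so no direction is given for Pmp22 between MA and the cultured fractions. The third probe carries the name of the gene through a cDNA clone, lies on the minus strand at chr11:62943886-62943945, and was not well above background in any fraction.

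**Figure D2:**
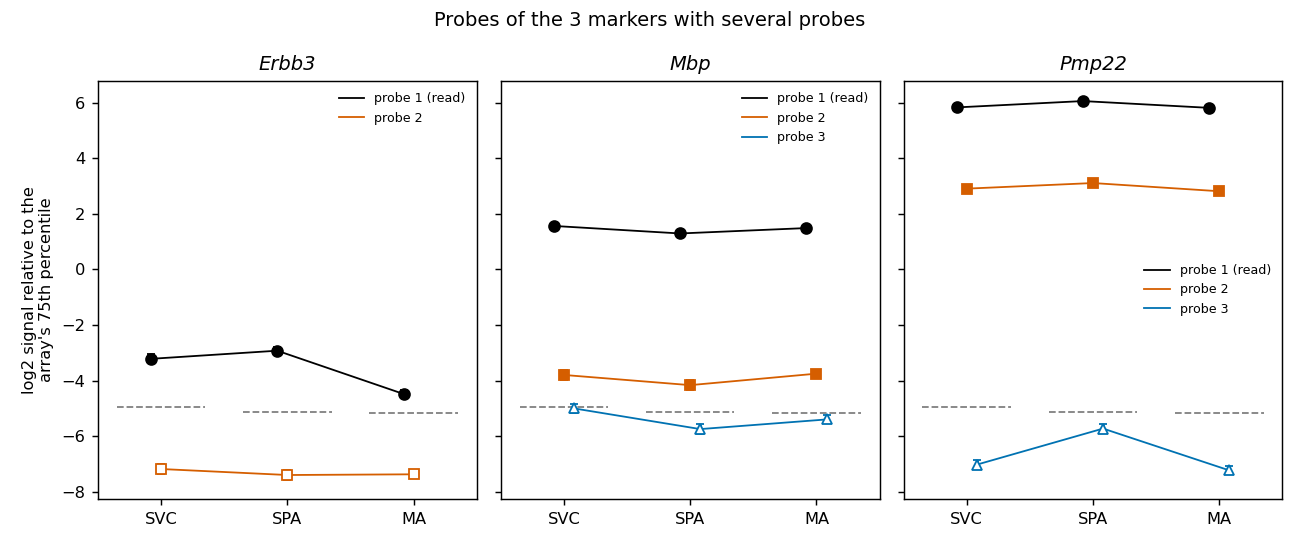
Log2 signal relative to the array's 75th percentile (y axis) of every probe of Erbb3, Mbp and Pmp22 in SVC, SPA and MA (x axis), 1 array each, with the within-array SD as error bars. Filled points are well above background and dashed lines are the detection floor. Each gene has 1 probe that stays under the line in all fractions, and for Erbb3 that is the RefSeq probe.

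S100b encodes a calcium-binding protein that is the classic immunostain for Schwann cells and that adipocytes also make and release. Its single probe lies at chr10:75723783-75723842 on the plus strand, in transcript NM_009115:
S100b probe: gaagctggacttgaggctttctaacttgca
S100b signals were 48.2 in SVC, 131.8 in SPA and 789.9 in MA, or levels of -3.16, -1.74 and 1.11. It rose at both steps, and in contrast to Ngfr the step to MA was the larger. SPA was 2.68-fold higher than SVC (log2 1.42 ± 0.17), MA was 7.19-fold higher than SPA (log2 2.85 ± 0.12), and MA was 19.3-fold higher than SVC (log2 4.27 ± 0.14). With the normexp correction the SPA to SVC log2 ratio of S100b was 0.80, under 2-fold, and its MA to SVC ratio was 8.78-fold, the lowest among all settings tried. The raw spot rose from 2.86 to 5.76 and 29.1 times its local background.

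**Figure D3:**
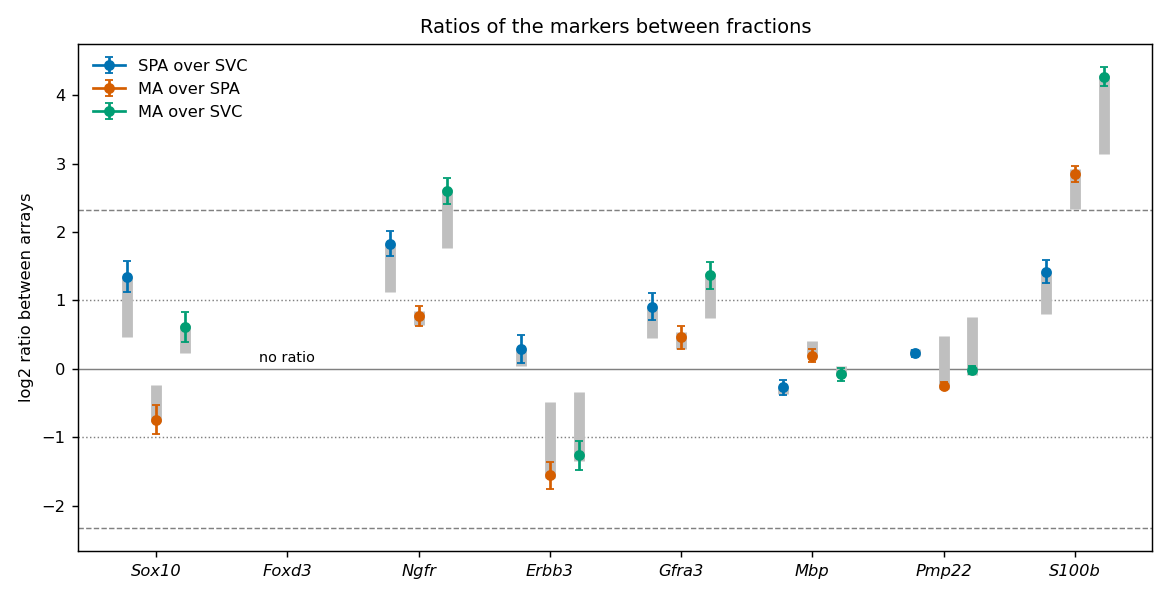
Log2 ratio between arrays (y axis) of the 8 markers (x axis) for SPA over SVC, MA over SPA and MA over SVC. Error bars are the within-array SD, grey bars span the lowest to highest ratio over the main and 9 alternative settings, and dotted and dashed lines are 2-fold and 5-fold. S100b is past 5-fold in both comparisons of MA, Ngfr in MA over SVC, and Foxd3 has no ratio.

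The 250 bases before the RNA starts of Ngfr and S100b are shown because this pair rose at both steps and had the largest ratios. The sequences are from RefSeq in build GRCm38.p6, so their coordinates differ from the mm9 positions of the probes, and capitals mark CG dinucleotides.
Ngfr, chr11:95587699-95587948, minus strand: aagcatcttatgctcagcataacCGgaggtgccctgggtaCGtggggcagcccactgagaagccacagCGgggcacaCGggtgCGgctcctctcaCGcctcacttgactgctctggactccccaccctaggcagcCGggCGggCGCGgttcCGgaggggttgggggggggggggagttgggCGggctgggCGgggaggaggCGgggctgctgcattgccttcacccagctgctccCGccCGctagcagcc
S100b, chr10:76253586-76253835, plus strand: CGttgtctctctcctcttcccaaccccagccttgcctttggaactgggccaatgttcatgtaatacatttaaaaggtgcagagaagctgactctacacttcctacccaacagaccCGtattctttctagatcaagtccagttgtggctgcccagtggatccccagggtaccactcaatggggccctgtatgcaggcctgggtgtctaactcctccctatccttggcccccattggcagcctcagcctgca
The 2 windows differ in composition. The Ngfr window holds 16 CG dinucleotides and 70.4% G or C, and the S100b window 2 CG dinucleotides and 53.6%. Over 32851 promoter windows of this length the median was 6 CG dinucleotides, 25.4% held as many as Ngfr or more, and 29.0% held as few as S100b or fewer. The letters ACAAAG, a core of the sites that SOX factors bind, were searched on both strands. They occur in none of the 7 windows listed for the 4 members found in the promoter table, which are Foxd3, Ngfr, Pmp22 and S100b, while 16.5% of all windows hold them. This says only that those letters are not in these windows.

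Counts over the members are set beside the share of all genes called by the same rule, out of 22663 to 23956 genes that either array of a comparison measured well above background. From SVC to SPA, 0 of the 8 members were at least 5-fold higher (0.322% of all genes) and 0 were at least 5-fold lower (0.353%). Ngfr, S100b and Sox10 rose at least 2-fold (3.9% of all genes) and 0 members were at least 2-fold lower (3.25%). From SPA to MA, only S100b was at least 5-fold higher (5.49%), 0 members were at least 5-fold lower (3.98%), S100b was also the only one at least 2-fold higher (15.8%), and Erbb3 was at least 2-fold lower (17.9%). Between MA and SVC, S100b and Ngfr were at least 5-fold higher in MA (5.74%) and 0 members at least 5-fold lower (3.97%). At 2-fold, S100b, Ngfr and Gfra3 were higher (17.3%) and Erbb3 was lower (18%). At 2-fold from SVC to SPA the members' share, 3 of 8, was above that of all genes. With the normexp correction it was 1 of 8, for which no share of all genes was computed. In the step to MA, where 1 of 8 rose and 1 fell, the share was near that of all genes. The members were chosen with earlier results of these data known, so the higher share is a description only. The comparisons share arrays, SPA lying in the first 2 of them, so that a high SPA spot raises one ratio and lowers the other.

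The median log2 ratio of the 7 members with a ratio was 0.91 for SPA over SVC, 0.19 for MA over SPA and 0.61 for MA over SVC, beside 0.05, -0.08 and -0.07 over all genes well above background on both arrays. Ngfr, Gfra3 and S100b had the order SVC, SPA, MA from low to high, as did 25.4% of the 19865 genes above background on all arrays. Sox10, Erbb3 and Pmp22 were highest in SPA, as were 31.0% of these genes. The spread over the 3 fractions of S100b, 4.27 on the log2 scale, exceeded that of 98.1% of these genes, and that of Ngfr exceeded 92.0%. Erbb3, Gfra3 and Sox10 followed with 78.5%, 74.2% and 73.7%, while Mbp and Pmp22 varied less than most genes, with 12.5% and 10.5%.

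**Figure D4:**
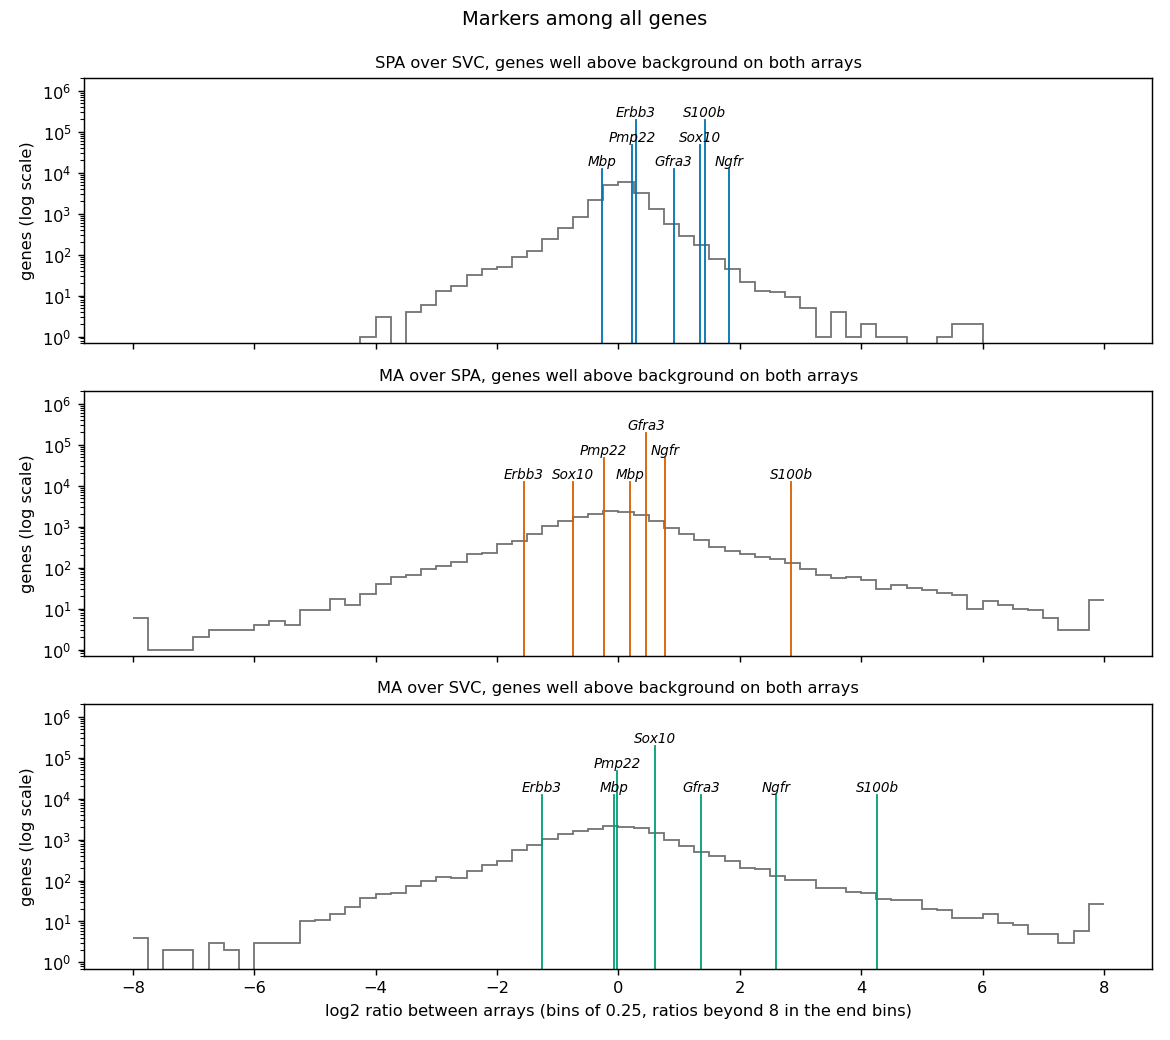
Number of genes (y axis, log scale) by log2 ratio between arrays (x axis) for the 3 comparisons, over genes well above background on both arrays. Vertical lines mark the 7 markers with a ratio. S100b is the only marker past 5-fold in MA over SPA, and S100b and Ngfr are the only ones in MA over SVC.

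Other markers of Schwann cells gave no common direction. In a list of 10 genes that includes 4 of the members, the linear signals relative to the 75th percentile summed to 5.90, 5.89 and 45.6 in SVC, SPA and MA. Egr2, the factor that switches on myelin genes and is also an early-response gene in many cells, was 8.87-fold higher in MA than in SVC. Without Egr2 the sums were 1.12, 1.37 and 3.30, and without the members as well they were 0.84, 0.80 and 1.00. Cdh19, a cadherin restricted to the lineage, was not well above background in any fraction. Prx, which organizes the sheath, had a log2 ratio of -0.28 for MA over SVC. Of the 10 genes, Cdh19 and Foxd3 were thus not detectable in any fraction.

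Markers of other cell types also differed between the fractions, some in the order of S100b, Ngfr and Gfra3 and some not. Their part in the ratios was not tested. All 6 adipocyte genes (Adipoq, Plin1, Cidec, Fabp4, Lep and Lipe) were at least 5-fold higher in MA than in SVC, with summed signals of 5.93 in SVC, 50.5 in SPA and 1913 in MA, and Adipoq and Plin1 were not well above background in SVC. This is the order of S100b, Ngfr and Gfra3. All 5 endothelial genes (Pecam1, Cdh5, Tek, Kdr and Emcn) were at least 5-fold higher in MA than in SPA and than in SVC, with sums of 2.09, 2.34 and 27.4. The sums for mural cells, where NGFR is also found, were 355, 150 and 40.8, but the 6 genes did not move together. Rgs5 and Cspg4, of this list, were 120-fold and 8.18-fold higher in MA than in SVC and had the order of Ngfr. The probes of Cspg4 ranged from 0.09 to 3.03 on the log2 scale. Pdgfrb, of the same list, went the other way and was 2.74-fold lower in MA than in SVC. Acta2 and Cnn1, contractile genes, were 15.0-fold and 31.5-fold lower, and Myh11 was 1.72-fold higher but lowest in SPA. Sums over 6 fibroblast and progenitor genes were 475, 223 and 420, over 5 macrophage genes 117, 153 and 64.2, over 5 lymphocyte genes 3.54, 3.83 and 4.83, and over 5 mesothelial genes 19.1, 5.63 and 19.4. Cells that share markers with Schwann cells were read as well: 5 oligodendrocyte genes had sums of 18.4, 23.5 and 30.3, 5 melanocyte genes 0.97, 0.77 and 1.83, and 6 neuronal genes 12.4, 10.8 and 8.83.

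Beyond the members, 81 related genes in 7 lists were read, of which 57 were measured above background in all fractions and 11 in none. From SVC to SPA, 1 of 67 measured was at least 5-fold higher (1.49%, against 0.322% of all genes) and 2 were lower (2.99%, against 0.353%). From SPA to MA, 9 of 69 were higher (13%, against 5.49%) and 10 were lower (14.5%, against 3.98%), and MA over SVC gave the same counts (against 5.74% and 3.97%). The related genes thus passed 5-fold more often than all genes did, in both directions. Their lists were chosen with earlier results of these data known, so this too is a description only. Their median log2 ratios, bounds included, were 0.06, 0.30 and 0.09, beside 0.07, -0.07 and -0.001 over all genes with a ratio or a bound.

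The 24 further Schwann lineage and myelin genes held 3 that were at least 5-fold higher in MA than in SVC and 2 that were lower. Egr2 had levels of 2.25 in SVC, 2.17 in SPA and 5.40 in MA. Pllp, which encodes the myelin protein plasmolipin, was above background in MA only and at least 15.8-fold higher there than in SVC. Art3, of the ADP-ribosyltransferase family, had a log2 ratio of 8.20, but its probes ranged from 1.50 to 8.20. In the other direction were Ncam1 and Fabp7, which immature Schwann cells express. Such genes did not fall as a group, since Ngfr was 6.07-fold higher in MA than in SVC. Gap43 and Dhh, of this list, were 1.10-fold and 2.85-fold higher, and L1cam was 1.40-fold lower at the probe read. Ncam1, an adhesion molecule, was at 3.47 in SVC, 2.41 in SPA and -3.63 in MA, and its probes gave log2 ratios of MA over SVC from -7.09 to -0.85. Fabp7, a fatty acid binding protein of glial precursors, was at 1.20, 1.99 and -3.79. Among the 15 neural crest transcription factors, Snai1 and Snai2, which drive the loss of cell contacts, were 7.23-fold and 7.40-fold lower in MA than in SVC and 0 were at least 5-fold higher. Tfap2b, Pax7 and Zic1 were not well above background in any fraction. Mitf, the regulator of pigment cells and osteoclasts, was the one factor called at 2-fold from SVC to SPA, at 2.25-fold. Tfap2a was well above background in SPA alone, at least 1.76-fold higher there than in SVC, so it may exceed 2-fold as well.

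The receptors' partners can be read beside Ngfr, Erbb3 and Gfra3. Among 10 neurotrophin genes with a probe, 3 were at least 5-fold higher in MA than in SVC and 2 were lower. Ntf3, which binds TRKC, was above background in MA alone, at least 9.06-fold over SVC. Bdnf, the ligand of TRKB, was 5.30-fold lower in SPA than in SVC. Ntrk2, which encodes TRKB, was 14.4-fold higher in MA than in SVC at the probe read, and its probes ranged from 1.32 to 3.85 on the log2 scale. Sort1, which encodes sortilin, the co-receptor of NGFR for pro-neurotrophins and a protein of the GLUT4 vesicles of adipocytes, rose 3.00-fold from SVC to SPA and was 17.7-fold higher in MA than in SVC, with probes from 0.37 to 4.14. Its relative Sorcs2 was 6.40-fold lower in MA than in SVC at the probe read, but its probes ranged from -2.68 to 0.45 on the log2 scale and so disagree on the direction. Ngfrap1, which binds the NGFR death domain, was 8.50-fold lower in MA.

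In the neuregulin and ErbB list of 10 genes, 1 was at least 5-fold higher and 1 was lower in MA than in SVC. Nrg4, a neuregulin that adipocytes secrete, was at levels of -3.75 in SVC, -3.55 in SPA and 2.87 in MA, and every probe of it with a ratio gave a log2 ratio of MA over SVC of 5.02 or more. It binds ERBB4, whose gene was at 1.59, 1.75 and 2.50. Ereg, a ligand of EGFR and ERBB4, was at least 44.1-fold lower in MA, where it was not well above background. Erbb2, the usual partner of ERBB3, had a log2 ratio of -1.68 for MA over SVC, while the log2 ratio of Nrg1 was 0.71 at the probe read and ranged down to -4.52 over its probes. In the GDNF family, Gfra2, the co-receptor of neurturin, rose at both steps as Gfra3 did, from -1.91 to -0.45 and 0.96, and was 7.31-fold higher in MA than in SVC. The ligands Gdnf and Artn also rose from SVC to SPA, by 2.95-fold and 2.15-fold, but MA had neither well above background. Artn, the ligand of GFRA3, was at least 9.26-fold lower in MA than in SPA. Ret, the receptor that signals for the whole family, was at -3.70, -3.54 and -2.08.

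The relatives of Pmp22 and S100b moved in both directions. Of the 3 other genes of the PMP22 family, Emp1 was 2.93-fold higher in MA than in SVC, while Emp2 was 2.07-fold and Emp3 3.82-fold lower. Of 9 other S100 genes and the receptor Ager, S100a9 was at least 5-fold higher in MA than in SVC and 2 were at least 5-fold lower. S100a4, the fibroblast-specific protein, was at 8.61 in SVC, 8.91 in SPA and 4.14 in MA, a 22.3-fold fall, and S100a6 fell 5.03-fold. S100a1, the S100 protein of heart and muscle, rose at both steps as S100b did, from 1.67 to 2.39 and 3.95. S100a8, a neutrophil and macrophage protein, was the one related gene to pass 5-fold upward from SVC to SPA, at 5.94-fold, while S100a9, its binding partner, was at least 6.52-fold lower in SPA than in SVC.

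**Figure D5:**
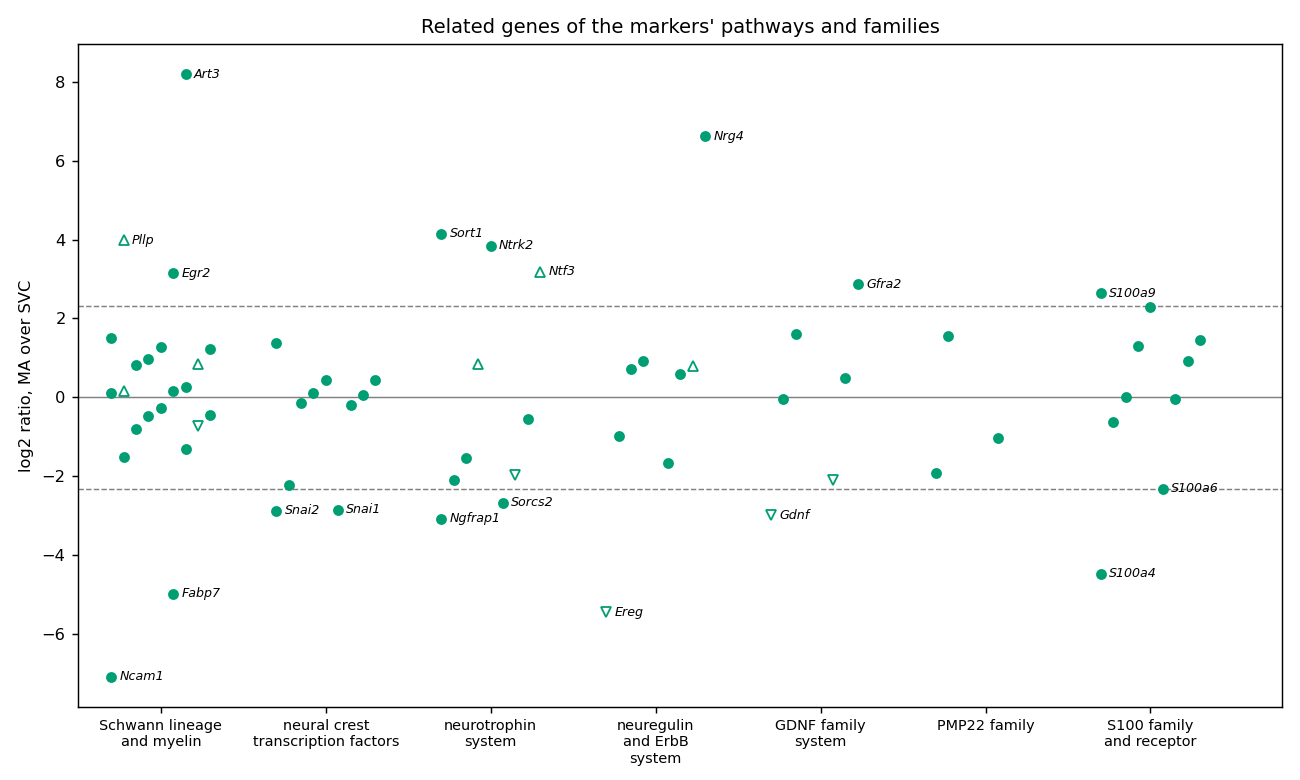
Log2 ratio of MA over SVC (y axis) of the related genes that have a ratio, in 7 lists (x axis). Filled points are ratios between arrays that both measured the gene, open triangles are bounds where 1 array did not, and dashed lines are 5-fold, past which genes are named. Higher and lower genes occur in most lists, with Art3 at 8.20 and Ncam1 at -7.09 as the extremes.

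For each member above background in all fractions, the 2 genes nearest to it in the shape of the 3 levels were found among the same 19865 genes, by the distance between levels centred on their mean. S100b lay nearest to Esam, an adhesion molecule of endothelial cells, at a distance of 0.034, and then to an unnamed transcript at 0.13. The nearest to Ngfr were Slc22a23, a member of the organic ion transporter family, at 0.082, and Cat, which encodes catalase, at 0.14. Gfra3 lay nearest to Lrrc61 and Olfm1, Erbb3 to Spats1 and Arhgef10l, and Sox10 to an unnamed transcript and Fam124a, at distances of 0.011 to 0.048. The flat shapes of Mbp and Pmp22 had the closest neighbours, Mettl10 and another unnamed transcript for Mbp and Usf2 and Narfl for Pmp22, at 0.00075 to 0.011. With 3 points per gene, such likeness is a description only.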

How the data were processed

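The deposited files hold, per spot, the signal intensity from Agilent Feature Extraction 10.7.3.1, with local background subtracted and the array detrended. The authors also deposited a table of the ratio of that signal to 1 constant per array. Control spots and outlier spots were left out, each array was scaled to its 75th percentile on the log2 scale, and a gene with several probes was taken at the one brightest on average. A probe not well above background was bounded by its own signal or by the detection floor of that array, whichever was higher. Genes were called at 5-fold, the limit the study used, and at 2-fold. No test was possible with 1 array per fraction, and this number of arrays limits all precision.

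The members and the gene lists were chosen with earlier results of these data known. Named genes were the 8 members with all probes, genes of the fixed lists, and for each member above background on all arrays its 2 nearest genes, and results for some list genes are not reported here. Probe positions come from the array annotation (mm9), and promoters are from RefSeq for GRCm38.p6, found for 4 of the 8 members. The 3 arrays lie on 1 slide. The titles give SVC and SPA one date and MA another, so date and MA cannot be told apart. The 9 alternatives were normexp background correction with an offset of 50, 3 other scalings (quantiles, the percentile over detected probes, the deposited ratios), 2 other treatments of dim probes, 2 other rules for genes with several probes, and exclusion of spots with an outlying local background. The reading was tested on simulated data for the SPA to SVC comparison (37073 genes), where 100 of 100 genes raised 8-fold, 77 of 100 genes lowered 8-fold and 0 unchanged genes were called. The simulated noise was small beside the 5-fold limit. These counts therefore check the calling code and do not measure the rate of false calls in these data. Python 3.11.15, numpy 2.4.6, pandas 2.3.3, matplotlib 3.10.9, R 4.3.3 and limma 3.58.1 were used.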

Additional observations from a re-analysis of the deposited data

How the results depend on the processing

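No paired analysis was possible because each group holds 1 array. Of 9 alternatives, the normexp background correction moved the counts most. It left 1 member past 2-fold upward from SVC to SPA in place of 3, which was Ngfr, 1 member past 5-fold between MA and SVC in place of 2, which was S100b, and 0 members at least 2-fold lower in MA than in SPA or in SVC, in place of 1 each. Related genes past 5-fold over the 3 comparisons together numbered 26 in place of 41. The median of a gene's probes also left 0 members at least 2-fold lower in both comparisons of MA, since it joins the Erbb3 probe that was read with the one at background. The other 91 counts under the alternatives stayed within 1.5 times the main value, and no ratio of a member past 2-fold changed direction. Without the filter on dim probes the number of members above background is not defined and was not run. Signal over background limits the dim members, since the offset of normexp shrinks ratios of low signals.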
